A study of Rattus norvegicus with 6 samples.

Results

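Genes of voltage-gated sodium and calcium channels were examined in rat cultures of oligodendrocytes, the glial cells that form myelin, and of their precursors. They were chosen by name: every protein coding gene of the deposited table whose symbol begins with Scn, a number and a or b, or with Cacna, Cacnb or Cacng, which gave 40 of 37991 genes. The 40 genes were 10 sodium channel pore genes, 4 sodium channel beta genes, 10 calcium channel pore genes, 4 alpha2delta genes, 4 calcium channel beta genes and 8 gamma genes. Measured values played no part in the rule. Differentiated cultures (3 libraries) are SD rat oligodendrocytes after differentiation, which followed a change of growth factors in Raff medium. Precursor cultures (3 libraries) are SD rat oligodendrocyte precursors grown in Raff medium, the control condition before differentiation. Both groups carry replicate numbers 1, 2 and 5, and the titles give day 3 and day 0 for replicates 1 and 2, and no day in that form for replicate 5. Each library holds total RNA of a whole culture, so fewer cells of a type and less RNA per cell cannot be told apart.

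A voltage-gated channel opens when the membrane depolarises. Its pore is a single large protein with repeated domains, and smaller subunits set where the pore goes and how it opens. Sodium channels carry the upstroke of the action potential in neurons, and calcium channels turn depolarisation into calcium entry. Rodent oligodendrocyte precursors are known to carry both kinds of current, which become smaller as the cells mature. Of the 8 gamma genes, most are better known as auxiliary subunits of AMPA-type glutamate receptors than of calcium channels.

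Between 55522101 and 79898629 reads were counted per library, so that 1 CPM (a read count scaled to a common library total with TMM factors, trimmed means of log ratios between libraries) rested on 54.9 to 72.0 reads. The culture label was checked on markers: 14 of 14 myelin genes rose in differentiated cultures (summed level 18956 to 22252 CPM, against 1455 to 2299 CPM in precursor cultures), and of 11 precursor markers 0 fell and 1 rose (Bcan), while with the replicate number as a block 2 fell and 5 rose. As 0 of these 11 fell without the block, the precursor list did not set the groups apart as the myelin list did. Mbp and Cnp of the myelin list and Olig1, Bcan and Cspg5 of the precursor list were among the most abundant of their lists. Astrocyte markers were abundant in both groups (7964 to 8252 CPM in differentiated cultures, against 4375 to 6165 CPM in precursor cultures), and 5 of 11 tested rose, with Gfap, Aldoc and S100b the most abundant. These marker counts stand beside 5.65% of all tested genes that rose and 3.21% that fell, or 14.9% and 15.7% with the block. A noncoding RNA, Rn7sl1, took 24.0% to 38.7% of the TPM of a library, so TPM is used here to compare genes within a library and CPM to compare the groups. Summed TPM of a family is given as a level and was not tested between the groups. Both replicate 1 libraries were often the lowest of their group for channel genes. Precursor 1 had the lowest level of the 3 precursor libraries for 21 of 32 tested channel genes (65.6%, against 39.4% of all tested genes), and differentiated 1 the lowest of its group for 19 of 32 (59.4%, against 37.1%).

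Of the channel genes, 4 fell in differentiated cultures, and 0 rose. Of the 40, 32 passed the filter on low counts and were tested among 17797 genes. Among the called genes were Cacna2d1, Cacna1g and Cacng6, and each of these was lower in 3 of 3 same-numbered pairs. The count of 4 is 12.5% of the channel genes tested, beside 3.21% of all tested genes called lower, and the count of 0 higher stands beside 5.65% of all tested genes called higher (edgeR quasi-likelihood test, Benjamini-Hochberg adjusted p under 0.05). Without both replicate 1 libraries 5 channel genes were lower, which is 15.6% beside 8.11% of all tested genes, and 0 were higher, beside 8.48%. With the replicate number as a block 5 were lower and 1 was higher (15.6% and 3.12%, beside 15.7% and 14.9% of all tested genes), so that the share of channel genes called lower then stood at the share of all genes. Cacna2d1 was called in 5 of the 6 fits that each left out a library, Cacna1g in 1 and Cacng6 in 0. The count of channel genes called lower was 0 to 2 in those fits (0 without differentiated 2, 2 without precursor 1 or precursor 5, and 1 without differentiated 1, differentiated 5 or precursor 2), beside 0.804% to 3.05% of all tested genes. DESeq2 called the same 4 lower and 0 higher (beside 7.05% and 8.56% of all tested genes), and limma on log2(TPM + 1) called 2 lower, with Cacna2d1 among them, and 0 higher (beside 5.62% and 2.74%).

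By the values themselves, 5 tested channel genes had all differentiated libraries below all precursor libraries (15.6%, beside 13.8% of all tested genes), and 2 had all differentiated libraries above (6.25%, beside 16.5%). The median log2 fold change of the 32 was -0.26 and that of all tested genes -0.04, with 24 of the 32 below 0 and 8 above. With library size alone as the scaling, the median of all genes was -0.19, and on the log2(TPM + 1) scale -0.17. The median of the channel genes was not taken in those settings, so -0.26 cannot be set against these values. The counts of channel genes are over genes that passed a filter on low values, which a gene can pass through its higher group alone. An unadjusted p under 0.05 (edgeR) was reached by 5 of the 32 channel genes and by 4110 of all 17797 tested genes. The share of channel genes was the smaller one.

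**Figure D1:**
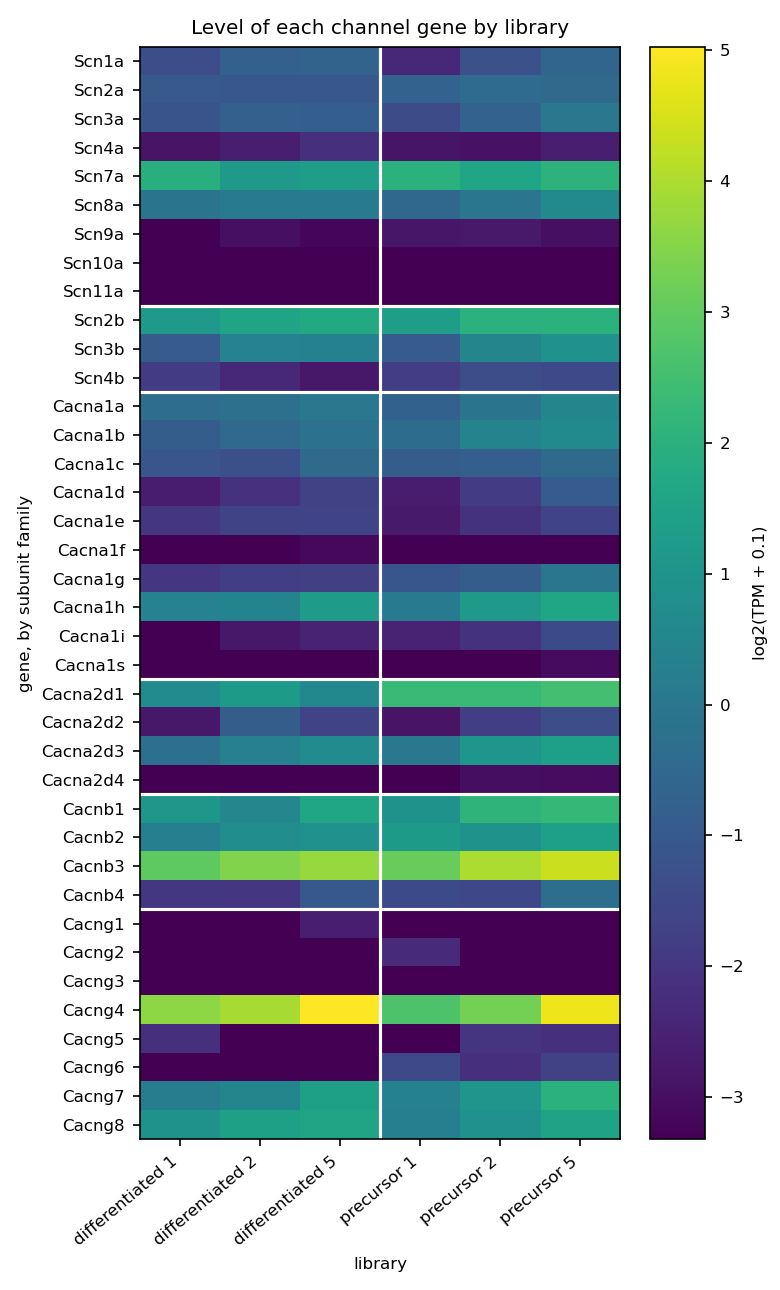
Level of 38 of the channel genes (rows, by subunit family, white lines between families) in the 3 differentiated and 3 precursor libraries (columns), as log2(TPM + 0.1) of the deposited TPM. Cacng4 and Cacnb3 are the brightest rows, while Scn10a, Scn11a and Cacng3 are at the dark end in all 6 libraries.

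Transcripts of the channel genes were scarce. On the deposited TPM scale, which is per transcript length and so allows different genes to be compared, the median over the 32 tested channel genes of the mean level was 0.667 TPM, against 6.81 TPM over all tested protein coding genes. The mean level over the 6 libraries was at least 1 TPM for 13 of the 32, and Cacng4 was the highest at 17.3 TPM. The 8 genes that were not tested had at most 19 reads in any library. Scn10a and Scn11a, sodium channel pores of pain-sensing neurons, and Cacng3 had 0 reads in every library, which allows up to 3 counts, or 0.0418 to 0.0546 CPM in differentiated and 0.0417 to 0.0471 CPM in precursor libraries. Cacna1f, of the retina, had 5 reads in differentiated 5 alone, and Cacng1, of skeletal muscle, had 3 reads in the same library alone. Cacna1s, the skeletal muscle pore, had 6 reads in precursor 5 alone, Cacna2d4 had 6 and 4 reads in precursors 2 and 5, and Cacng2 (stargazin) had 19 reads in precursor 1 alone. No level of these 8 can be compared between the groups at this depth.

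Markers of neurons, the cells best known for these channels, are given beside the channel genes because whole cultures were sequenced. Of 16 neuron markers tested 1 rose (Elavl3) and 2 fell (Elavl4 and Stmn2), and with the block 1 rose and 5 fell. Beside the marker counts given here, 5.65% of all tested genes rose and 3.21% fell, and with the block 14.9% and 15.7%. The median over the 16 of the log2 fold change was -0.80. Their summed level was 289 to 329 CPM in differentiated libraries and 264 to 468 CPM in precursor libraries, most of it Tubb3 and Map2. Of the 17 markers, 0 were at 0 reads in all libraries, and Snap25, a synaptic protein, was at 0.488, 0.635 and 0.491 CPM in differentiated cultures, against 1.15, 0.838 and 1.83 CPM in precursor cultures. Microglia markers summed to 335 to 635 CPM in differentiated and 341 to 875 CPM in precursor libraries (1 of 11 rose, C1qc, and with the block 2 rose and 3 fell, with Aif1, Csf1r and Cd68 the most abundant). Markers of fibroblasts and mural cells summed to 332 to 409 CPM in differentiated and 169.8 to 379.8 CPM in precursor libraries (2 of 10 rose, Pdgfrb and Tagln, and with the block 2 rose and 5 fell, with Tagln, Col3a1 and Col1a2 the most abundant). Schwann cell markers summed to 49.2 to 109 CPM in differentiated and 16.5 to 28.8 CPM in precursor libraries (2 of 6 rose, Pmp2 and Cdh19, and with the block 4 rose and 1 fell, with Pmp2 and Egr2 among the most abundant). Endothelial and muscle markers summed to 42.3 CPM or less and 7.98 CPM or less in any library, with 0 called, led by Flt1, Slco1c1 and Kdr for endothelium and Des, Tnnt2 and Myog for muscle. The part of these cells in the channel values was not tested.

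Among the sodium channel pore genes 8 of 10 were tested, and 0 passed in either direction (median log2 fold change -0.04, edgeR unadjusted p above 0.05 for each of the 8). Their summed level was 5.11 ± 0.453 TPM in differentiated cultures and 6.35 ± 1.42 TPM in precursor cultures (SD, n = 3 each). Scn7a (gene identifier 64155 in the table, given in this way for other genes too) is a relative of the voltage-gated pores that responds to the sodium concentration, and it was the most abundant pore gene. It had 27.5, 14.1 and 14.6 CPM in differentiated cultures 1, 2 and 5, against 25.0, 15.3 and 18.4 CPM in precursor cultures 1, 2 and 5. Replicate 1 was high in both groups, the ranges of the groups overlapped, and the difference missed the threshold (log2 fold change -0.06 with an SE of 0.31, adjusted p = 0.935 by edgeR). Scn7a made up 53.8% ± 10.6 in differentiated cultures and 58.6% ± 10.9 in precursor cultures of the summed TPM of the pore genes (SD, n = 3 each).

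Scn8a (29710), the pore of mature nodes of Ranvier, came next on the TPM scale, with 0.944 ± 0.107 TPM in differentiated cultures and 0.979 ± 0.448 TPM in precursor cultures. Its CPM values were 6.34, 6.57 and 6.08 in differentiated cultures, against 4.02, 4.88 and 6.95 in precursor cultures (log2 fold change 0.26 with an SE of 0.25, adjusted p = 0.594 by edgeR). The differentiated libraries were nearly alike and lay inside the range of the precursor libraries. Scn2a (24766), a pore of immature axons and axon initial segments, had 0.405, 0.381 and 0.377 TPM in differentiated cultures, against 0.511, 0.653 and 0.635 TPM in precursor cultures. On the CPM scale, which is used between the groups, the groups of Scn2a overlapped. Its values were 4.08, 3.22 and 2.98 CPM in differentiated cultures, against 4.44, 4.82 and 3.89 CPM in precursor cultures. Scn3a (497770), best known from the embryonic brain, had 0.345, 0.494 and 0.464 TPM in differentiated cultures, against 0.272, 0.512 and 0.917 TPM in precursor cultures, and Scn1a (81574), a pore of inhibitory interneurons, 0.296, 0.496 and 0.526 TPM in differentiated cultures, against 0.0952, 0.322 and 0.559 TPM in precursor cultures. Scn8a lay above Scn1a, Scn2a and Scn3a in each of the 6 libraries. In differentiated cultures the ranges of those 3 over the libraries overlapped. In precursor cultures the ranges of Scn8a, Scn2a and Scn3a over the libraries overlapped as well.

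Of these 3 brain pores, 0 passed the test, with log2 fold changes of 0.77 for Scn1a (adjusted p = 0.407 by edgeR), -0.35 for Scn2a (0.43) and -0.01 for Scn3a (0.987). Scn9a (78956), a pore of peripheral sensory and sympathetic neurons, had 0, 16 and 5 reads in differentiated cultures, against 27, 28 and 13 reads in precursor cultures. It was at 0 in differentiated 1, and its log2 fold change of -1.54 carried a standard error of 1.26 (adjusted p = 0.53 by edgeR). Among all genes, 115 had 0 reads in 1 library and at least 20 reads in each of the other 5. Scn9a, with fewer than 20 reads in some of its other libraries, was not among them. Whether a single 0 is a failed estimate was not tested. Scn4a, the skeletal muscle pore, had 15 to 43 reads per library (log2 fold change 0.88, adjusted p = 0.491 by edgeR).

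The sodium channel beta subunits are small proteins with an immunoglobulin fold that bind the pore, change its gating and also act in cell adhesion. Scn2b (25349), which is joined to the pore by a disulfide bond, had 6.97, 9.76 and 9.57 CPM in differentiated cultures, against 7.56, 10.7 and 9.93 CPM in precursor cultures. Its groups overlapped (log2 fold change -0.10 with an SE of 0.22, adjusted p = 0.834 by edgeR). Scn3b (245956) had 2.03, 4.74 and 4.13 CPM in differentiated cultures, against 1.76, 4.26 and 5.02 CPM in precursor cultures, with replicate 1 lowest in both groups (log2 fold change -0.02 with an SE of 0.47, adjusted p = 0.988 by edgeR). Scn4b (315611) had 11 to 66 reads in differentiated and 54 to 79 reads in precursor libraries without a call (log2 fold change -0.87, adjusted p = 0.475 by edgeR). The share of the summed beta TPM taken by Scn2b was 54.8% ± 1.88 in differentiated cultures and 41.6% ± 3.46 in precursor cultures (SD, n = 3 each). The summed level of the beta genes was 5.03 ± 1.06 TPM in differentiated cultures and 8.20 ± 1.41 TPM in precursor cultures.

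**Figure D2:**
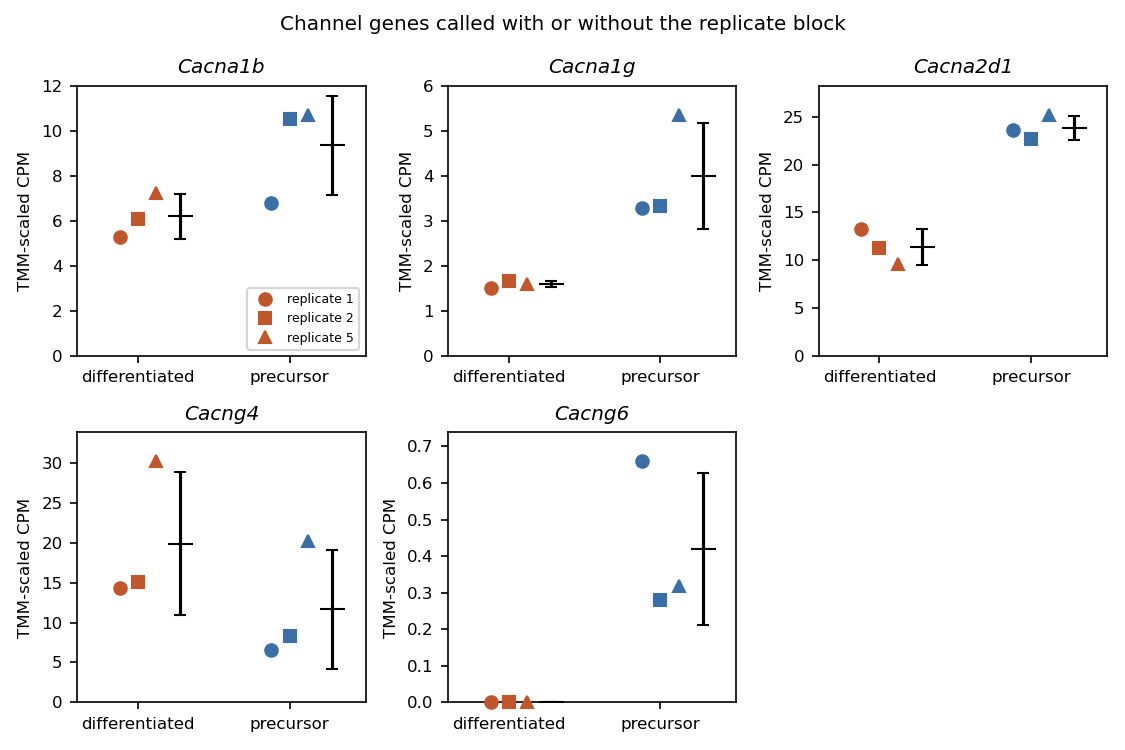
TMM-scaled CPM of 5 channel genes called without or with the replicate block, with differentiated libraries left of precursor libraries, a symbol for each replicate number, and the mean with its SD (n = 3) beside the points. Cacna1g, Cacna2d1 and Cacng6 show no overlap of the groups, while Cacna1b and Cacng4 overlap and keep their order within each replicate number.

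Calcium channel pores fall into groups by the current they carry. Of 10 pore genes 8 were tested, 1 fell and 0 rose (median log2 fold change -0.23), beside 3.21% and 5.65% of all tested genes. Their summed level was 3.99 ± 1.25 TPM in differentiated cultures and 5.66 ± 2.51 TPM in precursor cultures (SD, n = 3 each). The gene that fell, Cacna1g (29717), encodes a T-type pore, which opens at small depolarisations. It had 1.52, 1.66 and 1.60 CPM in differentiated cultures 1, 2 and 5, against 3.29, 3.34 and 5.36 CPM in precursor cultures 1, 2 and 5, and 109, 107 and 88 reads in differentiated cultures against 210, 239 and 386 reads in precursor cultures. Every differentiated library lay below every precursor library, and precursor 5 stood above the other precursors. This fall was called (log2 fold change -1.33 with an SE of 0.29, adjusted p = 0.0326 by edgeR). It passed in 1 of the 6 fits without 1 library, that without precursor 1 (edgeR adjusted p up to 0.123), and it did not pass by limma on log2(TPM + 1) (limma adjusted p = 0.094).

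The other T-type pores did not pass. Cacna1h (114862) was the most abundant calcium channel pore on the TPM scale, at 1.59 ± 0.647 TPM in differentiated cultures and 2.04 ± 0.966 TPM in precursor cultures (SD, n = 3 each), and had 11.6, 10.4 and 18.04 CPM in differentiated cultures, against 8.64, 15.7 and 17.4 CPM in precursor cultures (log2 fold change -0.06 with an SE of 0.32, adjusted p = 0.939 by edgeR). Its groups overlapped fully. Cacna1i (56827) had 0, 20 and 26 reads in differentiated cultures, against 34, 57 and 94 reads in precursor cultures. The differentiated libraries were all lower, 1 of them at 0, but the values are small and gave no call (log2 fold change -1.76 with an SE of 1.17, adjusted p = 0.435 by edgeR). Cacna1h took 39.3% ± 3.79 in differentiated cultures and 35.6% ± 3.597 in precursor cultures of the summed pore TPM, and Cacna1g 4.67% ± 0.896 in differentiated cultures and 10.1% ± 1.90 in precursor cultures. Whether the change of Cacna1g differed from that of Cacna1h was not tested.

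Cacna1b (257648) encodes the N-type pore of presynaptic terminals. It had 5.28, 6.11 and 7.24 CPM in differentiated cultures, against 6.81, 10.6 and 10.7 CPM in precursor cultures. Differentiated 5 reached into the precursor range, but within each replicate number the differentiated library was the lower one. The difference did not pass without the block (log2 fold change -0.59 with an SE of 0.24, adjusted p = 0.194 by edgeR) and passed with it (log2 fold change -0.58, SE 0.14, edgeR adjusted p = 0.0264), and it also passed without both replicate 1 libraries (0.0483). Cacna1a (25398), the P/Q-type pore, had 7.91, 7.30 and 8.46 CPM in differentiated cultures, against 5.10, 7.07 and 9.43 CPM in precursor cultures and overlapped between the groups (log2 fold change 0.13 with an SE of 0.25, adjusted p = 0.813 by edgeR). Scaled by library size alone, its log2 fold change was -0.04, and on the log2(TPM + 1) scale it was -0.06. Cacna1e, the R-type pore, had 2.83, 3.33 and 3.17 CPM in differentiated cultures, against 0.894, 1.89 and 2.56 CPM in precursor cultures. All differentiated libraries were above all precursor libraries, without a call (log2 fold change 0.80, adjusted p = 0.281 by edgeR). The L-type pores Cacna1c and Cacna1d, with log2 fold changes of -0.02 and -0.41, did not pass either (adjusted p = 0.979 and 0.764 by edgeR). Cacna1c had 4.77 to 8.54 CPM in differentiated and 6.29 to 6.89 CPM in precursor libraries.

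**Figure D3:**
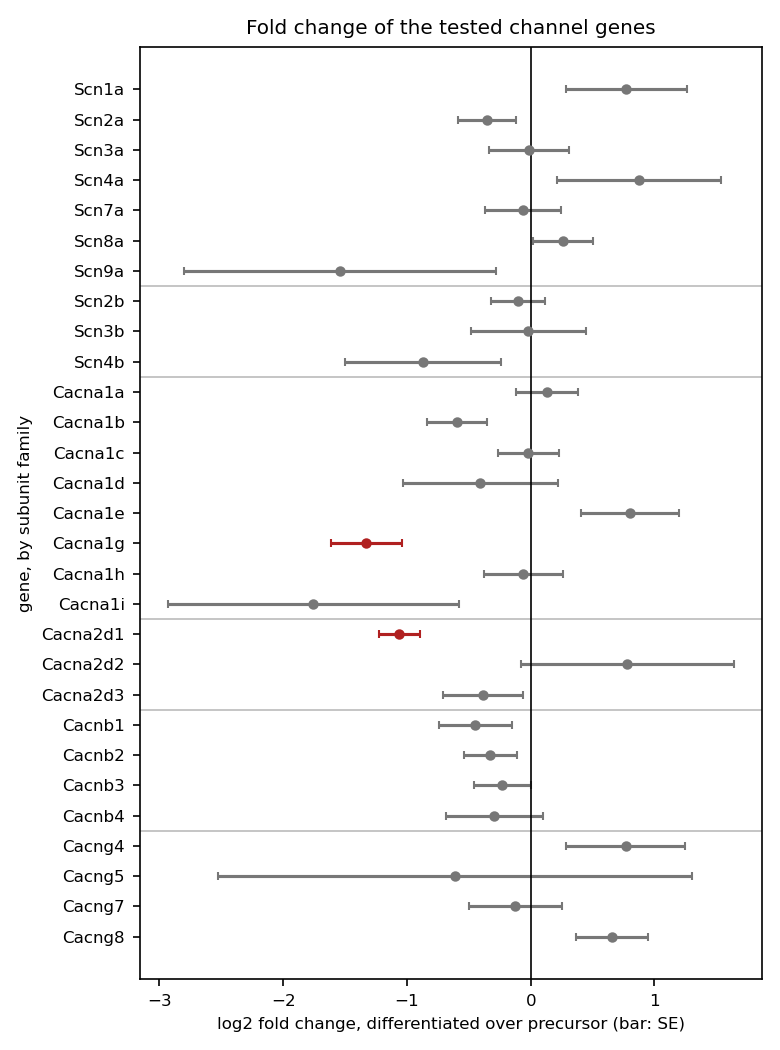
Log2 fold change of 29 tested channel genes, differentiated over precursor, with its SE from edgeR as a bar, grouped by subunit family from top to bottom and red where called. Cacng6 is left out because it had 0 reads in all differentiated libraries, and the widest bars belong to genes with few reads, such as Cacng5, Scn9a and Cacna1i.

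The alpha2delta proteins sit outside the membrane and raise the number of calcium channels at the surface. Cacna2d1 (25399), which binds gabapentin and thrombospondins, had the smallest adjusted p among the channel genes. It had 13.3, 11.3 and 9.61 CPM in differentiated cultures 1, 2 and 5, against 23.6, 22.7 and 25.2 CPM in precursor cultures 1, 2 and 5. The precursor libraries lay close together, and every differentiated library was far below them. Cacna2d1 was at 11.4 ± 1.86 CPM in differentiated cultures and 23.8 ± 1.27 CPM in precursor cultures (SD, n = 3 each). This fall was called (log2 fold change -1.06 with an SE of 0.17, adjusted p = 0.00915 by edgeR). The call held in 5 of the 6 fits without 1 library and was lost without differentiated 2 (edgeR adjusted p = 0.0562).

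Of the other alpha2delta genes, Cacna2d3 (306243) had 3.14, 4.18 and 5.24 CPM in differentiated cultures, against 3.44, 6.30 and 6.65 CPM in precursor cultures and was lower in 3 of 3 pairs without passing the test (log2 fold change -0.39 with an SE of 0.33, adjusted p = 0.547 by edgeR). Cacna2d2 (300992) had 22, 162 and 64 reads in differentiated cultures, against 13, 68 and 83 reads in precursor cultures, with groups that overlapped (log2 fold change 0.78 with an SE of 0.86, adjusted p = 0.654 by edgeR). Cacna2d1 took 56.1% ± 11.3 in differentiated cultures and 73.2% ± 8.89 in precursor cultures of the summed alpha2delta TPM, Cacna2d3 36.9% ± 10.4 in differentiated cultures and 24.4% ± 7.29 in precursor cultures and Cacna2d2 7.01% ± 4.90 in differentiated cultures and 2.23% ± 1.44 in precursor cultures (SD, n = 3 each). In differentiated 5 the share of Cacna2d3, 48.8%, was above that of Cacna2d1, 44.0%, and in the other 5 libraries Cacna2d1 led. The summed level of the family was 3.09 ± 0.776 TPM in differentiated cultures and 7.18 ± 1.41 TPM in precursor cultures.

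The windows around the annotated starts of Cacna2d1 and Cacng6, called genes with an entry in the RefSeq promoter table of build GRCr8, are shown because these genes were lower in differentiated cultures. They run from 250 bases before to 50 bases after the start, 5′ to 3′ on the gene's strand. Cacna2d1 lies at chr4:20330098-20330397 on the minus strand and Cacng6 at chr1:74662704-74663003 on the minus strand. Capitals mark the GC box GGGCGG, known as a site of Sp1 family factors, on either strand.
Cacna2d1: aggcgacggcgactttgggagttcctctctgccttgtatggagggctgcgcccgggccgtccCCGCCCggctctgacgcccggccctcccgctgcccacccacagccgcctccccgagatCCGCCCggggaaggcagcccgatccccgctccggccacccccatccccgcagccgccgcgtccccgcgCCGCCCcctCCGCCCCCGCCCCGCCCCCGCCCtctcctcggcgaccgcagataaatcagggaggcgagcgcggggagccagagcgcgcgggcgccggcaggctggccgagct
Cacng6: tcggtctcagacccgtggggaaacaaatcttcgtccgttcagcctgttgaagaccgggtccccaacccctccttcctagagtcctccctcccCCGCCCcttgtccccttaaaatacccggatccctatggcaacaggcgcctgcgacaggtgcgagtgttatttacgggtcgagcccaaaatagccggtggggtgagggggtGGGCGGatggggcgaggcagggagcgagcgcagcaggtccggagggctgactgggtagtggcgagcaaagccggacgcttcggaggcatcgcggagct
The Cacna2d1 window held 7 matches, of which 1 pair shares a base, and a GC content of 78.3%. The Cacng6 window held 2 matches and a GC content of 63.7%, against a median of 52.3% over the 27457 promoters of the table. A GC box stood in 34.9% of these promoters and in 14 of the 27 channel gene promoters that matched by gene identifier. A further 4 motifs were searched on both strands, and no motif lies within another. The E-box CAGCTG stood in 8 of 27 (15.1% of all promoters), ACAAAG, a core of SOX factor sites, in 2 (18.3%), the TATA box TATAAA in 2 (14.3%), and TTCAGCACC, a part of the site of the repressor REST, in 1, Cacng3 (0.379%). These 4 had 0 matches in the Cacna2d1 or Cacng6 window. Cacna1g is not shown.

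The calcium channel beta subunits lie in the cytoplasm, hold the pore at the surface and protect it from degradation. All 4 were tested and 0 passed in either direction, with log2 fold changes between -0.45 and -0.23 (edgeR unadjusted p above 0.05 for each). Cacnb3 (25297) was the most abundant, at 10.6 ± 2.88 TPM in differentiated cultures and 15.0 ± 6.14 TPM in precursor cultures (SD, n = 3 each), which was 73.3% ± 4.15 in differentiated cultures and 70.0% ± 3.70 in precursor cultures of the family. It had 23.2, 27.6 and 31.7 CPM in differentiated cultures, against 22.0, 36.2 and 38.6 CPM in precursor cultures (log2 fold change -0.23 with an SE of 0.23, adjusted p = 0.623 by edgeR). Replicate 1 was lowest in both groups, and precursor 1 lay below all differentiated libraries.

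Cacnb1 (50688), the beta subunit of skeletal muscle that is also found in brain, had 7.87, 5.28 and 9.25 CPM in differentiated cultures, against 6.89, 12.3 and 11.4 CPM in precursor cultures (log2 fold change -0.45 with an SE of 0.30, adjusted p = 0.431 by edgeR). Cacnb2 (116600), the main beta subunit of the heart, had 5.24, 6.35 and 5.88 CPM in differentiated cultures, against 8.86, 5.995 and 7.07 CPM in precursor cultures (log2 fold change -0.33 with an SE of 0.21, adjusted p = 0.424 by edgeR), and here precursor 1 was the highest library. Both genes overlapped between the groups. Cacnb4 had 1.80 to 4.26 CPM in differentiated and 2.63 to 4.001 CPM in precursor libraries (log2 fold change -0.29, adjusted p = 0.719 by edgeR). The order Cacnb3 above Cacnb1 and Cacnb2 above Cacnb4 on the TPM scale held in each library, while the order of Cacnb1 and Cacnb2 changed between libraries.

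**Figure D4:**
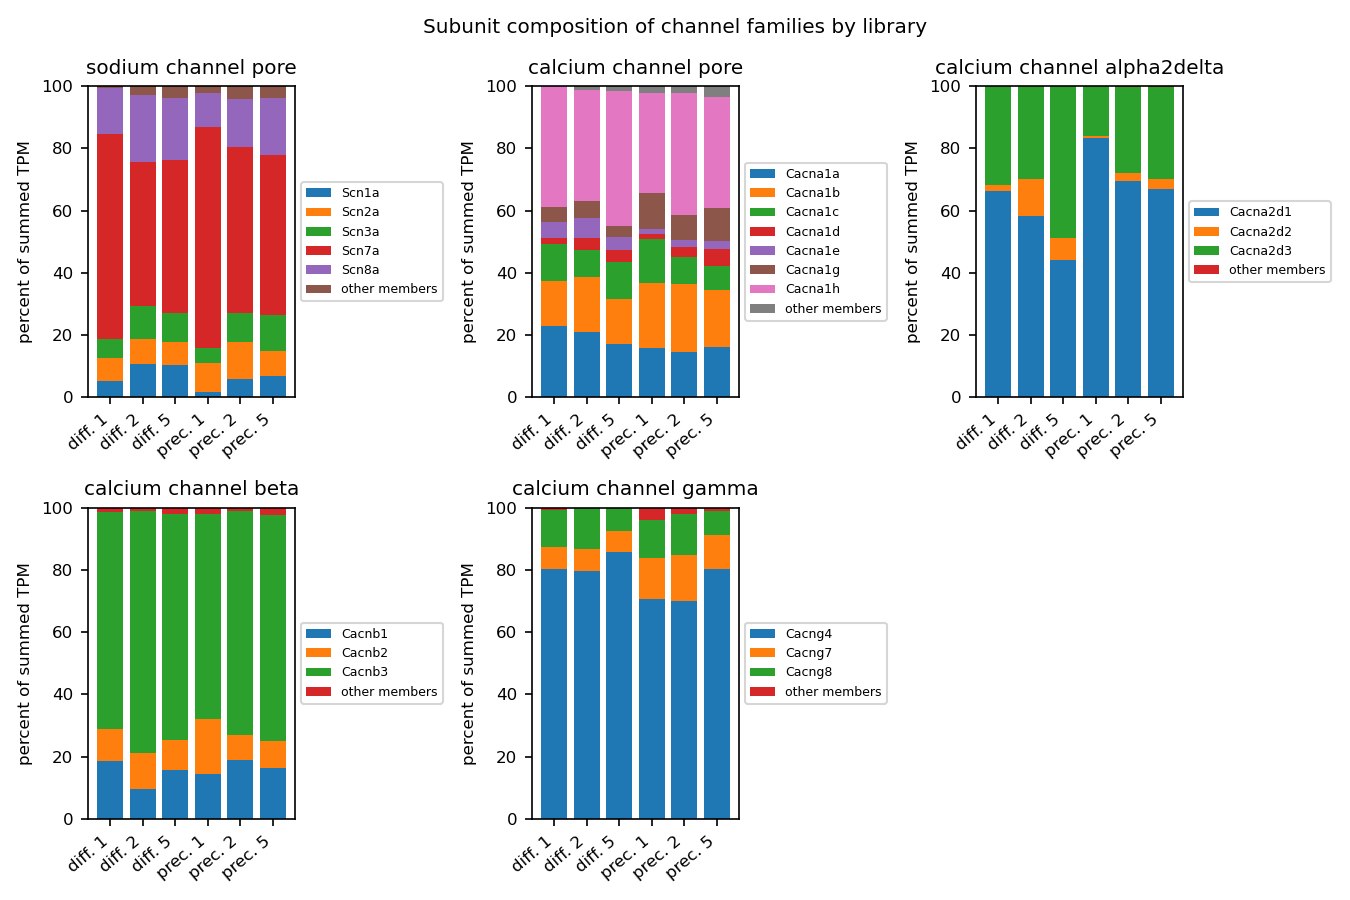
Share of the summed deposited TPM of 5 subunit families taken by each member, in percent, for differentiated (diff.) libraries 1, 2 and 5 on the left and precursor (prec.) libraries 1, 2 and 5 on the right. Members under 5% in each library are joined with others as other members. Scn7a, Cacna1h, Cacnb3 and Cacng4 hold the widest band of their family in each library, and Cacna2d1 holds 56.1% of the alpha2delta TPM in differentiated and 73.2% in precursor cultures on average.

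Of the 8 gamma genes 5 were tested, 1 fell and 0 rose, beside 3.21% and 5.65% of all tested genes. Cacng6 (140727), a relative of the skeletal muscle gamma subunit, had 0, 0 and 0 reads in differentiated cultures, against 42, 20 and 23 reads in precursor cultures. The differentiated libraries were all at 0 and the precursor libraries all at low counts, with precursor 1 the highest. Cacng6 passed the low-count filter through the precursor libraries alone. Set against 3 counts assumed over the differentiated group in place of 0, the precursor counts gave 26.1-fold. This is a bound set by the floor and no estimate of the size of the fall. That value does not allow for the spread of the precursor libraries. The difference between the groups passed the test (adjusted p = 0.0373 by edgeR). The call was lost in each of the 6 fits without 1 library (edgeR adjusted p up to 0.119), without both replicate 1 libraries (0.0636) and by limma on log2(TPM + 1) (limma adjusted p = 0.0519).

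Cacng4 (140725), an auxiliary subunit of AMPA receptors, had the highest mean TPM over the 6 libraries of all 40 channel genes. It was at 19.9 ± 11.0 TPM in differentiated cultures and 14.7 ± 11.7 TPM in precursor cultures (SD, n = 3 each). In precursor cultures alone the mean of Cacnb3, 15.0 TPM, was the higher one. Cacng4 took 81.9% ± 3.31 in differentiated cultures and 73.7% ± 5.60 in precursor cultures of the summed gamma TPM. It had 14.4, 15.1 and 30.2 CPM in differentiated cultures 1, 2 and 5, against 6.54, 8.26 and 20.2 CPM in precursor cultures 1, 2 and 5. Replicate 5 was the highest of each group, and within each replicate number the differentiated library was the higher one. The difference did not pass without the block (log2 fold change 0.77 with an SE of 0.48, adjusted p = 0.401 by edgeR) and passed with it (log2 fold change 0.86, SE 0.13, edgeR adjusted p = 0.00479). In the 6 fits without 1 library the log2 fold change was 0.34 to 1.42 without a call, and without both replicate 1 libraries it was 0.67 (edgeR adjusted p = 0.398).

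Cacng8 (140729), another AMPA receptor auxiliary, had 2.77, 3.29 and 3.37 CPM in differentiated cultures, against 1.46, 2.00 and 2.51 CPM in precursor cultures, with all differentiated libraries above all precursor libraries and no call (log2 fold change 0.66 with an SE of 0.29, adjusted p = 0.232 by edgeR). Cacng7 (140728), which belongs to a separate class of these auxiliaries, had 2.37, 2.71 and 4.88 CPM in differentiated cultures, against 2.51, 3.48 and 4.85 CPM in precursor cultures (log2 fold change -0.12 with an SE of 0.38, adjusted p = 0.89 by edgeR). Its groups overlapped, and its share of the summed gamma TPM was 6.88% ± 0.0821 in differentiated cultures and 13.0% ± 1.78 in precursor cultures (SD, n = 3 each), beside 11.0% ± 3.16 in differentiated cultures and 11.0% ± 2.90 in precursor cultures for Cacng8. Cacng5 had 38, 0 and 0 reads in differentiated cultures, against 0, 34 and 25 reads in precursor cultures. Its reads came and went within both groups, 0 in 3 of the 6 libraries, and it was called lower only without both replicate 1 libraries, where the differentiated libraries left were at 0 (edgeR adjusted p = 0.0447).

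Genes that work with these channels were followed in 6 lists chosen by function. Of 94 tested, 9 rose and 3 fell (9.57% and 3.19%, beside 5.65% and 3.21% of all tested genes), with a median log2 fold change of 0.03. With the replicate block 19 rose and 13 fell (20.2% and 13.8%, beside 14.9% and 15.7%). Among 17 partners of sodium channels 5 rose and 0 fell, and with the block 6 rose and 1 fell. Nfasc (116690), the cell adhesion protein neurofascin, which has a glial form at the paranode, had 419.8, 603 and 936 CPM in differentiated cultures, against 54.9, 39.1 and 75.3 CPM in precursor cultures. Each differentiated library was above each precursor library (log2 fold change 3.53 with an SE of 0.37, adjusted p = 0.00186 by edgeR). Ank3 (361833), ankyrin G, which anchors sodium channels at initial segments and nodes, had 44.7, 56.7 and 78.0 CPM in differentiated cultures, against 21.7, 19.2 and 22.1 CPM in precursor cultures (log2 fold change 1.51 with an SE of 0.21, adjusted p = 0.00562 by edgeR). Sptbn4 (308458), the spectrin that binds it there, had 6.87, 7.997 and 10.01 CPM in differentiated cultures, against 1.63, 1.76 and 2.79 CPM in precursor cultures (log2 fold change 2.01 with an SE of 0.29, adjusted p = 0.00681 by edgeR). All 3 held in each of the 6 fits without 1 library, and so did Bace1, the protease that cuts sodium channel beta subunits, which had 39.2, 43.5 and 47.3 CPM in differentiated cultures, against 10.7, 14.8 and 16.6 CPM in precursor cultures (log2 fold change 1.63, adjusted p = 0.00284 by edgeR). On log2(TPM + 1) Ank3 missed the threshold (limma adjusted p = 0.0614), and on log2(TPM + 0.1) Ank3 and Sptbn4 did (limma adjusted p = 0.0522 and 0.0536). Fgf12, Fgf13 and Fgf14, cytoplasmic proteins that bind the pore's tail, had log2 fold changes of -0.21, -0.63 and 0.18 and did not pass (edgeR adjusted p = 0.652, 0.314 and 0.756).

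Among 23 partners of calcium channels 1 rose and 1 fell, and with the block 1 rose and 5 fell. Of all tested genes 5.65% rose and 3.21% fell, and with the block 14.9% and 15.7%. Camk2b (24245), a calcium/calmodulin-dependent kinase, had 25.5, 30.4 and 33.7 CPM in differentiated cultures, against 68.9, 90.8 and 95.1 CPM in precursor cultures. The groups lay far apart, and the fall held in each of the 6 fits without 1 library (log2 fold change -1.51 with an SE of 0.17, adjusted p = 0.00256 by edgeR). Dpysl2 (25416), a microtubule-binding protein that also binds the N-type pore, had 2092, 2299 and 2518 CPM in differentiated cultures, against 1047, 1304 and 1410.2 CPM in precursor cultures (log2 fold change 0.88 with an SE of 0.14, adjusted p = 0.0109 by edgeR, and up to 0.0588 without 1 library), and it missed the threshold on log2(TPM + 1) (limma adjusted p = 0.155). Of 5 genes of the sodium leak channel 0 passed without the block and 2 rose with it, Nalcn and Unc79. Nalcn (266760), the leak pore, had 32.4, 30.3 and 28.9 CPM in differentiated cultures, against 16.1, 21.4 and 26.4 CPM in precursor cultures (log2 fold change 0.52, adjusted p = 0.16 by edgeR, and 0.0498 with the block). Of 18 genes of calcium stores and release 0 passed without the block and 5 rose and 1 fell with it. The most abundant of them, Atp2a2, a pump of the endoplasmic reticulum, had 338, 386 and 392 CPM in differentiated cultures, against 285, 284 and 303 CPM in precursor cultures, with no overlap of the groups (log2 fold change 0.36, adjusted p = 0.0812 by edgeR, and 0.00692 with the block).

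Among 17 genes that export sodium or calcium 3 rose and 0 fell, and with the block 4 rose and 3 fell. The shares of all tested genes were 5.65% higher and 3.21% lower, or 14.9% and 15.7% with the block. Slc24a2, an exchanger of sodium for calcium and potassium, had 3.44, 3.595 and 2.49 CPM in differentiated cultures, against 0.643, 1.01 and 1.00 CPM in precursor cultures. Slc8a2, an exchanger of sodium for calcium, had 12.7, 17.6 and 25.9 CPM in differentiated cultures, against 3.12, 6.62 and 7.92 CPM in precursor cultures. They rose with log2 fold changes of 1.84 and 1.67 (adjusted p = 0.0152 and 0.045 by edgeR, up to 0.0769 and 0.153 without 1 library), and both missed the threshold on log2(TPM + 1) (limma adjusted p = 0.0743 and 0.113), as Slc8a2 did with library size alone (edgeR adjusted p = 0.0791). Of the astrocyte markers tested, 5 of 11 rose, and 9 with the block, and their part in these values was not tested. Of 14 AMPA receptor subunits and other auxiliaries, the proteins that Cacng4, Cacng7 and Cacng8 work with, 0 rose and 2 fell, and with the block 1 rose and 3 fell. Olfm3, an olfactomedin, had 2.74, 2.40 and 2.58 CPM in differentiated cultures, against 7.83, 7.504 and 6.52 CPM in precursor cultures (log2 fold change -1.50 with an SE of 0.20, adjusted p = 0.00508 by edgeR). Cnih3, a cornichon that exports AMPA receptors to the surface, had 0.920, 1.22 and 0.892 CPM in differentiated cultures, against 1.84, 5.90 and 3.32 CPM in precursor cultures (log2 fold change -1.86 with an SE of 0.46, adjusted p = 0.0491 by edgeR, and up to 0.172 without 1 library).

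**Figure D5:**
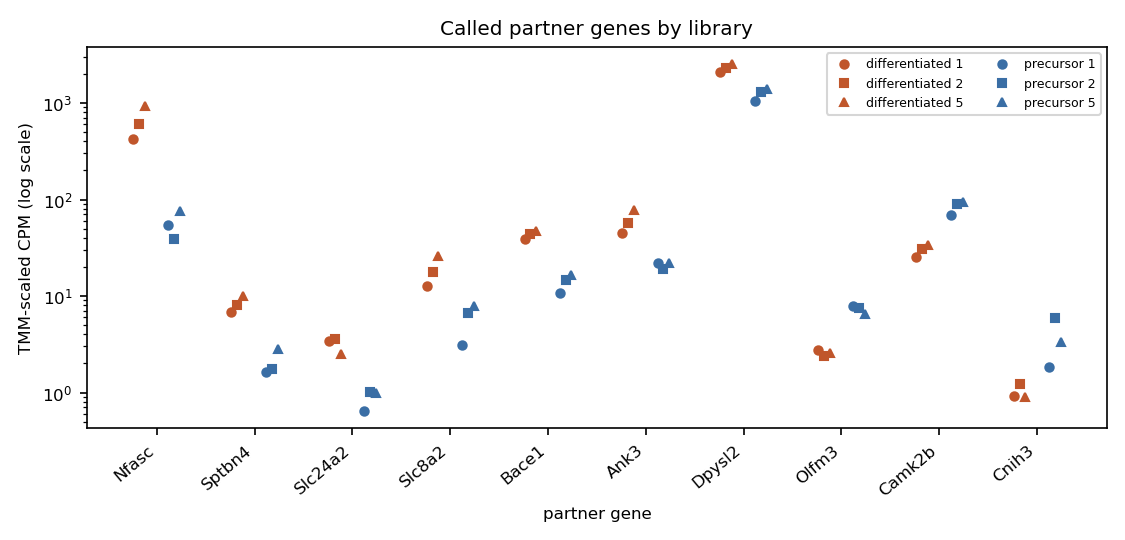
TMM-scaled CPM (log axis) of 10 called partner genes, from the largest to the smallest log2 fold change, with differentiated libraries left of precursor libraries for each gene and a symbol for each replicate number. The 7 genes on the left are higher in all differentiated libraries, and the 3 on the right, Olfm3, Camk2b and Cnih3, are lower in all of them.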

How the data were processed

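RNA was measured in 6 libraries, given as 1 table for the whole series. Per the submitters' processing notes, the tools were StringTie 2.1.3b, HISAT2 2.1.0, Trimmomatic 0.38 and bcl2fastq 2.20.0. The notes name a human genome build, whereas the table has rat gene identifiers. The rat build and strand setting were not given in the sources used here, and genes that overlap or lie antisense to each other may share reads. The authors deposited whole-number read counts, FPKM and TPM per gene. Counts were tested with edgeR 4.0.16 in R 4.3.3 (quasi-likelihood, TMM scaling, filterByExpr, robust estimation), differentiated over precursor, 3 against 3, with Benjamini-Hochberg adjustment over 17797 genes. The SE of a log2 fold change was taken from the fold change and the root of F. Shares within families used the deposited TPM. The deposited FPKM served as an alternative alone. The fit was tested on simulated data.

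The labels do not say that replicates are separate cultures, and the p-values here measure no more than the spread between these libraries. Same-numbered libraries deviated together (correlation across genes 0.421, 0.197 and 0.272 for numbers 1, 2 and 5). Differentiated 2 with precursor 5 reached 0.105, and differentiated 5 with precursor 2 reached 0.0987. Number 1 with a different number gave -0.227 to -0.308. Deviations from a group mean cancel within the group, so a positive value for same-numbered libraries pulls the others down. The negative values therefore add nothing on pairing. The main fit left the numbers out. They were used as pairs in the block and in comparisons of same-numbered libraries, though no label calls them pairs. Blocked values are printed where the block changes a channel gene's call or a list's count. Depth was 55522101 to 79898629 counts, and floors of 3 counts cover counting error only. Every channel gene entered the counts, and values of some genes are not reported here. Full values were chosen for genes called with or without the block, the 3 most abundant of each family and those with a log2 fold change of at least 1 in size, and for called partner genes. Scn1a, Scn2a, Cacna1e, Cacng5, Unc79, Snap25, Elavl4, Stmn2, C1qc, Pdgfrb, Cdh19 and the Fgf genes were named after their values were seen. The members and lists were chosen with earlier results of these data known. Alternatives were DESeq2 1.42.0, library size alone, 2 other low-count filters, limma 3.58.1 on log2(TPM + 1) and log2(TPM + 0.1), no robust estimation, each library left out, and both replicate 1 libraries left out.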

Additional observations from a re-analysis of the deposited data

How the results depend on the processing

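The counts over all genes, 1005 higher and 571 lower, were 2643 and 2797 with the replicate block, 1521 and 1252 with DESeq2, 487 and 1000 by limma on log2(TPM + 1), 509 and 1090 on log2(TPM + 0.1), and 1529 and 1462 without both replicate 1 libraries. Those lower were 1006 with library size alone. In fits without 1 library they were 484 to 947 higher and 148 to 561 lower. Of the channel genes, 0 were higher and 4 lower. With the block 1 was higher, on log2(TPM + 1) 2 were lower, and without 1 library 0 to 2 were lower. DESeq2, library size alone, both other filters and the fit without robust estimation called the same 4 genes. The block changed no other channel gene call than those of Cacna1b and Cacng4. Partner genes, 9 higher and 3 lower, were 19 and 13 with the block and 15 and 6 with DESeq2. Those higher were 4 and 3 on the log2(TPM + 1) and log2(TPM + 0.1) scales, and those lower were 5 on log2(TPM + 0.1) and 8 without both replicate 1 libraries. Without 1 library 5 to 10 were higher and 2 to 5 lower. Marker genes lower, 2, were 16 with the block and 11 without both replicate 1 libraries, and without 1 library 17 to 28 were higher (26 with all libraries) and 1 to 5 lower.

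Fold changes of some genes without a call changed sign. Scn3a and Scn3b were at 0.0503 and 0.0245 with the block, Scn8a at -0.0027 on log2(TPM + 1), and Cacna1c at 0.017 without both replicate 1 libraries. Cacna1a was at -0.037 with library size alone, -0.0559 on log2(TPM + 1), -0.0715 on log2(TPM + 0.1) and -0.0623 without both replicate 1 libraries. Without 1 library the range was -0.24 to 0.32 for Scn3a, -0.44 to 0.16 for Scn7a, -0.23 to 0.0485 for Scn2b, -0.34 to 0.28 for Scn3b, -0.0548 to 0.37 for Cacna1a, -0.25 to 0.17 for Cacna1c, -0.80 to 0.35 for Cacna1d, -0.34 to 0.13 for Cacna1h, -0.0709 to 1.26 for Cacna2d2, -7.17 to 0.031 for Cacng5 and -0.51 to 0.15 for Cacng7. These had 0 calls with all libraries, and the cause was not tested.

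As a share of summed CPM, which is not per length, Scn2b took 59.2% of the sodium channel beta genes in differentiated and 51.1% in precursor cultures, Cacna1h 32.6% and 30.0% of the pore genes, Cacnb3 63.3% and 60.1%, Cacng4 73.9% and 61.9%, and Cacna2d1 67.4% in differentiated cultures. Genes with few reads, such as Cacng5, Cacng6, Cacna1i and Scn9a, are limited by depth.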

Other observations

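Several channel genes neighbour each other on the reference assembly GRCr8, lying within 3 protein coding genes of each other, and their reads are given together here. Cacng6, Cacng7 and Cacng8 lie together. Cacng6 had 0 reads in all differentiated libraries and 20 to 42 reads in precursor libraries, while Cacng7 had 170 to 268 reads in differentiated and 160 to 349 reads in precursor libraries, and Cacng8 185 to 212 reads in differentiated and 93 to 181 reads in precursor libraries. Cacng1, Cacng4 and Cacng5 lie together as well, and Cacng4 had 972 to 1657 reads in differentiated and 417 to 1452 reads in precursor libraries, whereas Cacng1 and Cacng5 had at most 38 reads in any library. Scn1a, Scn7a and Scn9a are neighbours, with at least 802 reads of Scn7a and at most 28 reads of Scn9a in each library. Cacna2d4, at 6 reads or fewer, neighbours Cacna1c, which had 308 to 469 reads in differentiated and 432 to 496 reads in precursor libraries.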
